A study of Mus musculus with 48 samples.

Results

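Metallothioneins are small cysteine-rich proteins that bind zinc and copper, and Mt1 and Mt2 encode the forms that most mouse tissues make. The members described here are these 2 genes and 3 zinc transporters: Slc30a1, which encodes the plasma membrane zinc exporter ZnT1, and Slc39a8 and Slc39a14, which encode the importers ZIP8 and ZIP14. They were chosen by name, as 5 of the 18782 genes in a table of expected counts from strand-specific bulk RNA-seq of the thoracic aorta. All 5 passed the filter on low counts, with 14431 genes tested in all.

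The libraries came from 48 wild-type C57BL/6J mice of both sexes, 3 weeks old at the start. Males and females were caged apart, so a difference between the sexes cannot be told apart from one between cages. Control mice drank normal water (MaCon, 10 males, and FeCon, 10 females). The other mice drank 0.4% β-aminopropionitrile (BAPN), an inhibitor of collagen and elastin cross-linking, for 28 days, and were grouped afterwards by outcome: without an aortic lesion (MaNonAD, 4 males, and FeNonAD, 8 females) or with aortic dissection or aneurysm (MaAAD, 7 males, and FeAAD, 9 females). Only survivors were sequenced, so mice that died of rupture are not among them, and the outcome groups were not assigned by the experimenter. The paper reports more rupture deaths in BAPN males than in BAPN females, so this selection was not equal in the sexes.

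Zinc entering the cytosol through ZIP importers is bound by metallothioneins, and the zinc-sensing transcription factor MTF-1, encoded by Mtf1, turns on Mt1, Mt2 and Slc30a1 through metal response elements. Metallothionein genes also respond to glucocorticoids and to interleukin-6 signalling through STAT3, and Slc39a14 is an acute phase gene in liver. ZIP8 and ZIP14 are close relatives that also carry manganese and iron.

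Library totals ran from 13548000 to 17281273 expected counts. Counts behind the members ran from 1471 to 22099 for Mt1, 358 to 11901 for Mt2, 863 to 3994 for Slc39a14, 125 to 451 for Slc30a1 and 71 to 404 for Slc39a8, so Slc39a8 carried the largest counting error of the 5. The smooth muscle content of the libraries was clear from 10 smooth muscle markers, none at 0 in any group, whose summed level ran from 12270 to 62132 CPM (counts scaled to a library total of 1000000). Fat and heart muscle RNA was present too. Summed adipocyte markers ran from 737 to 10072 CPM, both in MaAAD, and summed heart muscle markers from 45.5 to 742 CPM. Because these are bulk samples, fewer cells of a type and less RNA per cell cannot be told apart.

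In GENCODE M21 on GRCm38, Mt2 (ENSMUSG00000031762.7) lies on the plus strand of chromosome 8 from 94172664 to 94173568, and Mt1 (ENSMUSG00000031765.8) follows on the same strand from 94179082 to 94180327, with 5513 bases between them. Slc30a1 (ENSMUSG00000037434.7) spans 191906767 to 191913247 on the plus strand of chromosome 1. Slc39a8 (ENSMUSG00000053897.15) spans 135825279 to 135888572 on the plus strand of chromosome 3. Slc39a14 (ENSMUSG00000022094.15) spans 70303469 to 70351425 on the minus strand of chromosome 14. The counts themselves were made on GRCm39, so these positions describe the genes and not the reads.

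The 250 bases before the annotated start are shown for Mt2 and Mt1, whose levels moved together, and for Slc30a1, the other gene known to answer to MTF-1. The sequences are from RefSeq on GRCm38.p6, plus strand, written 5′ to 3′, and capitals mark matches to the metal response element core, TGCACNC or TGCGCNC on either strand, so a match on the reverse strand of the first form reads GNGTGCA. The windows are chr8:94172368-94172617, chr8:94178839-94179088 and chr1:191906531-191906780.
Mt2: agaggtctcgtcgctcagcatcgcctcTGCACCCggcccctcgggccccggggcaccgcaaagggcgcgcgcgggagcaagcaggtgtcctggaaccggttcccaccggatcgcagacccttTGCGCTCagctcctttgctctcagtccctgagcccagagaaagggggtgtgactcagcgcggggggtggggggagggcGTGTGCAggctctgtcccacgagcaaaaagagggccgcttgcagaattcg
Mt1: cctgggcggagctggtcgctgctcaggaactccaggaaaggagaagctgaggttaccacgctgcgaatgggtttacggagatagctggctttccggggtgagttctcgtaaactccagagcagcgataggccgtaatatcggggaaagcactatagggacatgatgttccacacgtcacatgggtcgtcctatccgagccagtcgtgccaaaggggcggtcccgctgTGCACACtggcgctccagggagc
Slc30a1: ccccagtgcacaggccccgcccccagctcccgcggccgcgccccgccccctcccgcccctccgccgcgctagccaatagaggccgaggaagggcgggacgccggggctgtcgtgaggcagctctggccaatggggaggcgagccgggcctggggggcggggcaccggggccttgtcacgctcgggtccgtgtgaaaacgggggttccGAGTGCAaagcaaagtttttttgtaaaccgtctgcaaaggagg

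The Mt2 window held 3 matches, the Mt1 window 1 and the Slc30a1 window 1. Of 32851 RefSeq windows of this length, 21.4% held at least 1 match and 1.26% held 3 or more. The 2 windows annotated for Slc39a8 held 0 and 1, and Slc39a14 was not in the promoter table used here. These windows end at the RefSeq start, which differs from the GENCODE start given above. It lies 46 bases upstream of it for Mt2, and 7 and 14 bases downstream of it for Mt1 and Slc30a1, so the windows are not the same stretch of each promoter by GENCODE and the counts of matches are not comparable between these genes on that annotation. Which start is most used in the aorta was not examined, and a start further downstream would put promoter sequence, and any matches in it, outside these windows. A match is a description of the letters only.

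Levels were compared between genes per kilobase of the longest transcript. In MaCon, Mt1 stood at 248 ± 139 CPM per kb and Mt2 at 184 ± 105 (SD, n = 10). Slc39a14 stood at 18.7 ± 3.85, Slc30a1 at 3.55 ± 0.184 and Slc39a8 at 2.06 ± 0.706 on the same scale. In FeCon, Mt2 stood at 1095 ± 490 CPM per kb and Mt1 at 939 ± 386, while the transporters ran from 3.70 ± 1.51 for Slc39a8 to 28.3 ± 12.1 for Slc39a14. The order of Mt1 and Mt2 in FeCon depends on the lengths used, 1085 bases for Mt1 and 511 for Mt2. Before division by length, Mt1 was above Mt2 in every FeCon library, at a ratio of 1.48 to 2.83. Which transcript is most used in the aorta was not examined. All further levels are CPM without division by length, and are compared only within a gene.

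Ordered by group mean, Mt1 stood highest in FeCon (1018 ± 419 CPM), followed by MaAAD (488 ± 336), FeAAD (326 ± 237), MaCon (269 ± 151), MaNonAD (259.5 ± 49.4) and FeNonAD (205 ± 166). Mt2 began in the same order, with FeCon at 559.6 ± 251, MaAAD at 335 ± 239 and FeAAD at 209 ± 197, and then FeNonAD, MaNonAD and MaCon lay together at 96.5 ± 155, 94.5 ± 22.6 and 94.0 ± 53.4. Slc39a8 was also highest in FeCon, at 15.6 ± 6.34 CPM, with MaAAD next at 13.7 ± 7.40 and the other groups from 7.26 to 8.66. Slc39a14 ran from 81.9 ± 20.7 in MaNonAD to 145 ± 62.1 in FeCon, and Slc30a1 only from 18.6 ± 0.965 in MaCon to 23.6 ± 2.81 in MaAAD. For every gene, the ranges of neighbouring groups in this order overlapped.

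**Figure D1:**
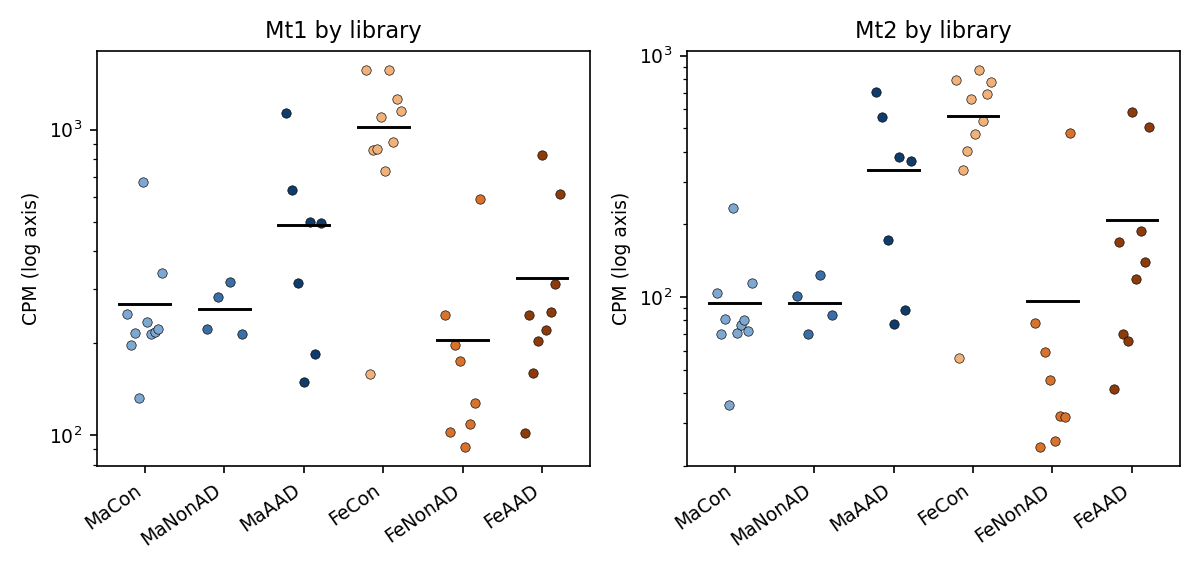
Mt1 and Mt2 in each of the 48 libraries, in CPM on a log axis, by group; points are mice and the horizontal line is the group mean. In both panels 9 of 10 FeCon libraries sit high and FeCon replicate 2 sits low, and FeNonAD replicate 8 stands above the other FeNonAD libraries.

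The question here was whether unchallenged aortas of the sexes differed. They did for 3 of the 5 members, all lower in males: 14.3% of all tested genes were called at an adjusted p under 0.05 in this comparison, and 7.9% were called lower in males. Mt1 ran from 132 to 672 CPM in MaCon with a median of 219.5, and from 159 to 1572 in FeCon with a median of 1007. FeCon replicate 2, at 159, was the only FeCon library inside the male range, since the next lowest stood at 729. MaCon replicate 5, at 672, was the highest male, with the next at 339. The fitted difference was -1.92 on the log2 scale (SE 0.37, adjusted p = 0.000539, edgeR).

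Mt2 separated the sexes in the same way. It ran from 35.8 to 234 CPM in MaCon (median 78.5) and from 56.1 to 874 in FeCon (median 597), where FeCon replicate 2 was again the lowest and the next stood at 334. The fitted log2 difference was -2.57 (SE 0.52, adjusted p = 0.000727). Slc39a8 was lower in MaCon by a fitted log2 difference of -0.85 (SE 0.24, adjusted p = 0.0159), with 5.41 to 14.0 CPM in MaCon and 6.56 to 24.4 in FeCon, so these ranges overlapped widely. Slc39a14 missed the threshold at -0.60 (SE 0.21, adjusted p = 0.0523; DESeq2 0.0367), and Slc30a1 stood at -0.15 (SE 0.12, adjusted p = 0.391).

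In females that drank BAPN without a lesion, both metallothionein genes and the importer gene Slc39a8 fell, 3 of 5 members against 14.5% of all tested genes called and 7.66% called lower. Mt1 ran from 91.0 to 595 CPM in FeNonAD with a median of 151, and 7 of the 8 libraries were at or below 247. Apart from FeCon replicate 2, every FeCon library was above every FeNonAD library. The fitted log2 difference was -2.31 (SE 0.41, adjusted p = 0.000179).

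Mt2 ran from 23.8 to 476 CPM in FeNonAD with a median of 38.7. FeNonAD replicate 8 held the 476, and the next highest library stood at 78.3. The fitted log2 difference was -2.54 (SE 0.56, adjusted p = 0.00187), and it was -3.73 (SE 0.53, adjusted p = 9.44e-06) without that library. Slc39a8 ran from 4.79 to 9.44 CPM with a median of 7.63, against a FeCon median of 14.6, for a log2 difference of -1.10 (SE 0.26, adjusted p = 0.00376). Only FeCon replicates 1 and 2, at 9.39 and 6.56, fell within the FeNonAD range. Slc39a14 (-0.37, SE 0.23, adjusted p = 0.278) and Slc30a1 (0.09, SE 0.12, adjusted p = 0.663) were not called.

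The females with dissection or aneurysm also had lower Mt1, Mt2 and Slc39a8 than FeCon. In this comparison 44.4% of all tested genes were called and 20.6% were called lower, so a call carries less weight here. Mt1 ran from 102 to 825 CPM in FeAAD (median 246), for a log2 difference of -1.64 (SE 0.38, adjusted p = 5e-04). Mt2 ran from 41.5 to 583 CPM (median 139.8), for -1.42 (SE 0.51, adjusted p = 0.0218). FeAAD replicates 5 and 9 were the highest of the group in both genes, at 825 and 615 CPM for Mt1 and 583 and 506 for Mt2. Slc39a8 ran from 4.39 to 11.7 CPM (median 7.55), for -0.88 (SE 0.25, adjusted p = 0.00406). Slc39a14 (-0.07, SE 0.22, adjusted p = 0.813) and Slc30a1 (0.14, SE 0.12, adjusted p = 0.345) were not called. Both female comparisons share the FeCon libraries.

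In males the unlesioned group did not separate from its controls. The 4 MaNonAD libraries held Mt1 at 222, 284, 317 and 215 CPM and Mt2 at 101, 70.3, 123 and 84.2, all within the MaCon range. Slc39a8 stood at 6.71, 6.37, 4.99 and 11.0, of which 4.99 was below the lowest MaCon library. No member was called by edgeR, at log2 differences from -0.25 to 0.12, with none at an unadjusted p under 0.05; 0.624% of all tested genes were called. DESeq2 called none either.

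Mt2 and Slc39a8, which were lower in lesioned females than in their controls, were higher in lesioned males. Mt2, Slc30a1 and Slc39a8 were higher in MaAAD than in MaCon, 3 of 5 members against 35% of all tested genes called and 18.9% called higher. Mt2 ran from 77.4 to 706 CPM in MaAAD with a median of 364.5. Of the 7 libraries, 4 were above the highest MaCon library and 3, at 77.4, 87.9 and 172, were within the MaCon range. The log2 difference was 1.83 (SE 0.53, adjusted p = 0.00596), and Mt2 was the only member that also passed 2-fold, which 9.18% of all tested genes did in this direction. Mt1 ran from 149.5 to 1137 CPM (median 496) and missed the threshold at 0.86 (SE 0.39, adjusted p = 0.0867); without MaCon replicate 5 it was 1.16 (SE 0.39, adjusted p = 0.0186).

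The change in the exporter gene Slc30a1 was small. It ran from 17.3 to 19.9 CPM in MaCon and from 19.2 to 27.7 in MaAAD, where 6 of 7 libraries were above every MaCon library, for a log2 difference of 0.34 (SE 0.13, adjusted p = 0.0322). Slc39a8 ran from 5.47 to 25.1 CPM in MaAAD, with replicates 2 and 6 at 25.1 and 21.5 and replicates 3 and 4 at 5.47 and 6.02. Its log2 difference of 0.66 (SE 0.26, adjusted p = 0.0476) lay at the edge of the threshold and was lost without MaCon replicate 5 (0.64, adjusted p = 0.0649), with the compared groups only (0.68, adjusted p = 0.0739) and with no filter on low counts (0.67, adjusted p = 0.0518). Slc39a14 missed it at 0.51 (SE 0.23, adjusted p = 0.0816) but was called with the compared groups only (0.54, adjusted p = 0.0221), with 87.4 to 207 CPM in MaAAD and 70.7 to 132 in MaCon.

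**Figure D2:**
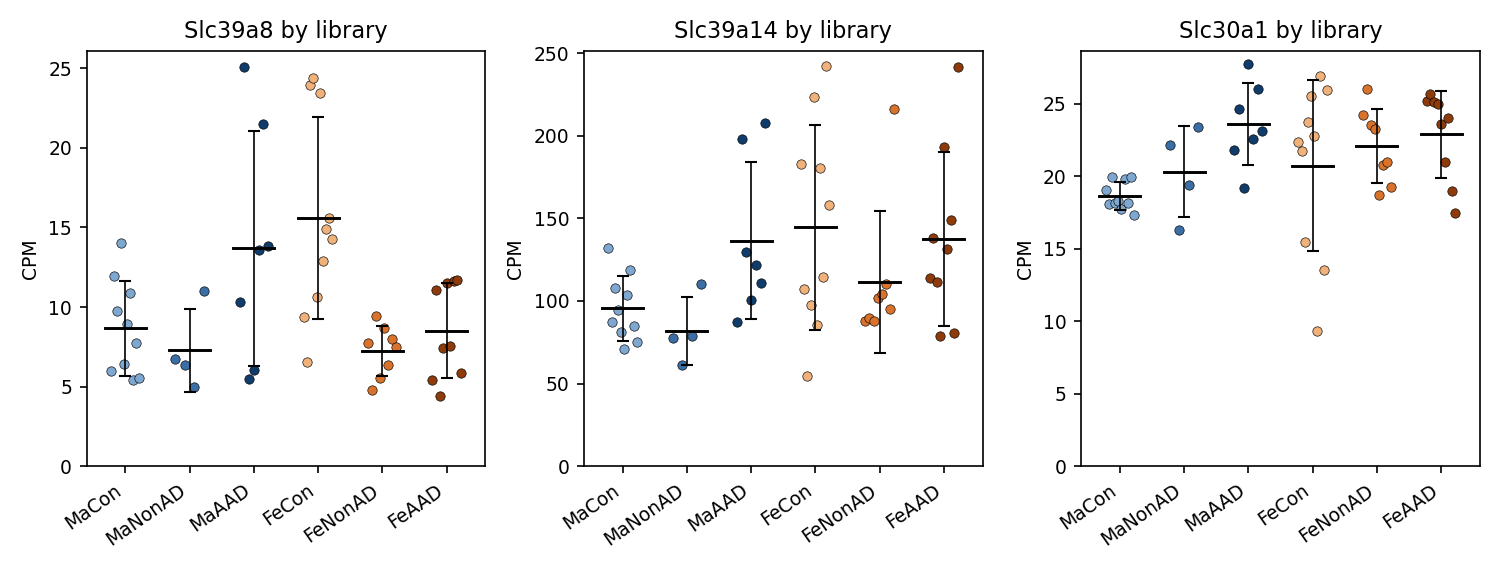
Slc39a8, Slc39a14 and Slc30a1 in each of the 48 libraries, in CPM, by group; points are mice, the horizontal line is the group mean and the bars are 1 SD. Slc39a8 is highest in FeCon and MaAAD, and Slc30a1 in MaCon is confined to 17.3 to 19.9 CPM while FeCon reaches down to 9.31.

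Whether the response differed between the sexes was tested with an interaction term, the male difference minus the female difference. For AAD against controls it was called for 3 of 5 members, against 1.34% of all tested genes called and 0.783% called higher. The log2 values were 2.50 for Mt1 (SE 0.55, adjusted p = 0.0125), 3.25 for Mt2 (SE 0.74, adjusted p = 0.0167) and 1.53 for Slc39a8 (SE 0.36, adjusted p = 0.0209). These values hold the difference between MaCon and FeCon as well as that between MaAAD and FeAAD. Between MaAAD and FeAAD themselves no member was called by edgeR or DESeq2, with 1 member, Slc39a8, at an unadjusted p under 0.05; 0.0901% of all tested genes were called.

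For NonAD against controls no member passed the interaction test, against 0.416% of all tested genes called. Mt1 stood at 2.26 (SE 0.60, adjusted p = 0.0676) and Mt2 at 2.54 (SE 0.81, adjusted p = 0.149), and 3 members were at an unadjusted p under 0.05. DESeq2 called 1 of the 5, Mt1 (2.27, adjusted p = 0.0223), and edgeR called Mt1 and Mt2 without FeNonAD replicate 8 (2.71, adjusted p = 0.0178, and 3.73, adjusted p = 0.00501). Between MaNonAD and FeNonAD edgeR called no member, with 0 at an unadjusted p under 0.05 and 0 called by DESeq2; 0.0624% of all tested genes were called. Without FeNonAD replicate 8, Mt2 moved from -0.03 to 1.16 (SE 0.56, unadjusted p = 0.044, adjusted p = 0.691, edgeR) and Mt1 from 0.34 to 0.79 (SE 0.46, adjusted p = 0.691).

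**Figure D3:**
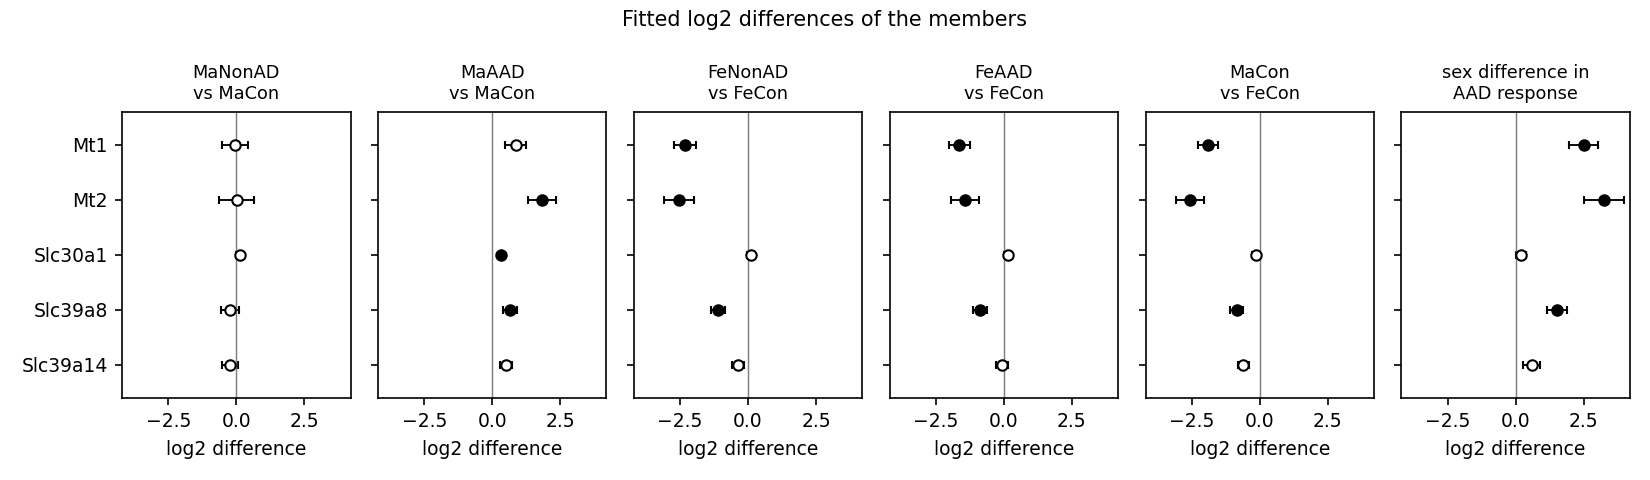
Fitted log2 differences of the 5 members in 6 contrasts, with bars of 1 SE; filled points are called at an adjusted p under 0.05 by edgeR. Mt1, Mt2 and Slc39a8 lie left of 0 in both female contrasts and in MaCon against FeCon, and right of 0 in the test of the sex difference in the AAD response.

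Between lesioned and unlesioned mice of the same sex edgeR called no member. In males the log2 differences ran from 0.22 for Slc30a1 to 1.83 for Mt2, and 3 of 5 members were at an unadjusted p under 0.05; 0.409% of all tested genes were called. In females they ran from 0.05 for Slc30a1 to 1.11 for Mt2, with 1 at an unadjusted p under 0.05; 18.2% were called. DESeq2 called none in either sex. The female result depended on FeNonAD replicate 8, the highest of its group in Mt1 and Mt2. Without it, Mt1 (1.12, SE 0.39, adjusted p = 0.0335) and Mt2 (2.31, SE 0.50, adjusted p = 0.000582) were higher in FeAAD by edgeR. This library was left out after its values were seen, and the high FeAAD replicates 5 and 9 were kept. Leaving out the highest library of the lower group widens a difference, so these calls are not evidence of one. For a sex difference in the step from NonAD to AAD, edgeR called no member and 0% of all tested genes. At an unadjusted p under 0.05 were 150 genes and 0 members, and DESeq2 called 1 gene, not a member. This contrast rests on 4 MaNonAD mice and is imprecise (Mt2 0.71, SE 0.87, and Slc39a8 0.68, SE 0.44). Large differences between the sexes are thus not excluded.

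Mt1 and Mt2 did not change by the same factor. The ratio of Mt1 to Mt2 CPM ran from 2.39 to 3.69 in MaCon (median 2.84) and from 1.14 to 2.10 in MaAAD (median 1.61), with no overlap. The mean log2 ratio fell by 0.88 (two-sided exact permutation test over libraries, p = 5.14e-05, adjusted over 9 comparisons 0.000463). FeCon ran from 1.48 to 2.83, lower than MaCon (exact permutation test, adjusted p = 0.000682). FeNonAD libraries lay from 3.16 to 4.31 except replicate 8 at 1.25, and the group was above FeCon by 0.73 on the log2 scale (exact permutation test, adjusted p = 0.0136). AAD was lower than NonAD in males by -0.81 (exact permutation test, adjusted p = 0.0136) and in females by -0.79 (exact permutation test, adjusted p = 0.0162). FeAAD against FeCon gave -0.06 (exact permutation test, adjusted p = 0.745).

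Across the 48 libraries, after subtraction of group means, Mt1 and Mt2 had a Pearson r of 0.96 and a Spearman rho of 0.93 (permutation test, adjusted p = 0.0001 for both over 10 pairs, the smallest these permutations can give). The r within each group of at least 6 libraries ran from 0.96 to 0.98, and it was 0.96 without the 2 libraries farthest from the median. Mt2 and Slc39a14 were the other pair past the threshold (r = 0.52, rho = 0.50, permutation test, adjusted p = 0.00445 and 0.00485), with r = 0.46 without the 2 farthest libraries. Within groups this r was 0.81 in FeNonAD and 0.79 in FeAAD, 0.48 in FeCon, 0.31 in MaAAD and -0.11 in MaCon, so it did not hold in MaCon. The value in FeNonAD rested on replicate 8: without it r was -0.50 over the other 7 libraries, and 0.44 over all 47 libraries left, with group means subtracted. For Mt1 and Slc39a14 the r of 0.39 missed the threshold (permutation test, adjusted p = 0.0515; rho = 0.33, adjusted p = 0.0933). Pooled over groups, the 2 importer genes showed no relation (r = -0.06, rho = -0.02, permutation test, adjusted p = 0.818 and 0.898). Within groups their r was -0.52 in FeCon, -0.12 in MaCon, 0.02 in FeAAD, 0.04 in FeNonAD and 0.45 in MaAAD. In FeCon, replicates 3, 4 and 6 held Slc39a8 at 23.9, 24.4 and 23.5 CPM and Slc39a14 at 54.6, 97.3 and 85.7.

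The wider zinc and copper lists held 37 genes beside the members, of which 36 were in the table and 28 were tested. Mt3 and Mt4, the other metallothionein genes, did not pass the filter, with at most 22 and 1 counts in any library. Mtf1 was not called in any comparison, and ran from 17.4 ± 1.60 CPM in MaNonAD to 20.5 ± 1.88 in FeNonAD. In FeNonAD against FeCon, 5 of the 28 were higher and 0 lower, with a median log2 difference of 0.12, where 6.87% of all tested genes were called higher. In FeAAD against FeCon, 14 were higher and 0 lower, with a median of 0.28, where 23.8% of all tested genes were called higher. In MaAAD against MaCon 11 were higher and 2 lower, with a median of 0.25, where 18.9% were called higher. The median of all tested genes was between -0.03 and 0 in these comparisons. In FeNonAD and FeAAD against FeCon, no tested gene of these lists other than Mt1, Mt2 and Slc39a8 was called lower.

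The named rises were led by the metalloreductases of the STEAP family, which reduce iron and copper before uptake. Steap4 rose by 1.05 (SE 0.24, adjusted p = 0.00229) in FeNonAD, 1.42 (SE 0.23, adjusted p = 2.95e-06) in FeAAD and 1.38 (SE 0.24, adjusted p = 1.41e-05) in MaAAD. Steap3 rose by 0.73, 0.87 and 0.98 in the same groups (adjusted p = 0.000371, 1.21e-06 and 5.75e-07), and Steap2 by 0.36 in FeNonAD (adjusted p = 0.0292). The importer gene Slc39a11 rose by 0.83 in FeAAD against FeCon (adjusted p = 5.91e-06) and by 0.54 against FeNonAD (adjusted p = 0.00832). Against FeNonAD, the copper importer gene Slc31a1 (0.46, adjusted p = 0.00639) and Slc39a13 (0.31, adjusted p = 0.0445) were also higher.

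The falls among these genes were of other importers. In MaAAD against MaCon, Slc39a2 fell by 0.76 (SE 0.24, adjusted p = 0.0103) and Slc39a3 by 0.45 (SE 0.09, adjusted p = 0.000149), with Slc39a2 counts near the filter (24.0 per library on average). Slc39a3 was also lower in FeAAD than in FeNonAD (-0.30, SE 0.09, adjusted p = 0.019). It was the only one of the 28 called in the interaction test for AAD (-0.49, SE 0.13, adjusted p = 0.0367), opposite in sign to Mt1, Mt2 and Slc39a8.

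Other gene groups were counted in the same comparisons, and their part in the results was not tested, also not by the split on Arntl given with the clock genes. Their counts stand against the shares of all tested genes called higher and lower, which were 6.87% and 7.66% in FeNonAD against FeCon, 23.8% and 20.6% in FeAAD against FeCon, 18.9% and 16.1% in MaAAD against MaCon, 0.443% and 0.18% in MaNonAD against MaCon, and 6.38% and 7.9% in MaCon against FeCon. Fkbp5, a glucocorticoid-induced gene, ran from 59.8 to 551 CPM in FeCon (median 235), against 11.1 to 153 in FeNonAD (median 61.0), 20.4 to 134 in FeAAD (median 55.6) and 18.5 to 223.5 in MaCon (median 97.1). It was lower than FeCon by a log2 difference of -1.91 in FeNonAD (adjusted p = 0.00553), -1.93 in FeAAD (adjusted p = 0.000585) and -1.42 in MaCon (adjusted p = 0.0227). Its median in FeCon differed with the level of the clock gene Arntl, although the ranges overlapped, and this was not tested. In libraries with Arntl at 20 CPM or above, Fkbp5 in FeCon ran from 71.0 to 551 CPM (median 401). In those libraries FeNonAD ran from 11.1 to 100 (median 68.6) and FeAAD from 46.05 to 105 (median 61.1), 3 libraries each. In libraries under 20 CPM, FeCon ran from 59.8 to 154 (median 112), where it overlapped FeNonAD (17.5 to 153, median 53.4) and FeAAD (20.4 to 134, median 47.8). The other 2 named genes of this list did not follow throughout. Against FeCon, Zbtb16 was lower in FeAAD (-1.52, adjusted p = 0.0153) but was not called in FeNonAD (-0.71, adjusted p = 0.392) or MaCon (-0.53, adjusted p = 0.495). Tsc22d3 was called in none of the 3 (-0.15, -0.18 and -0.01, adjusted p = 0.712, 0.739 and 0.993 in FeAAD, FeNonAD and MaCon). Of 16 glucocorticoid-responsive genes other than Mt1 and Mt2, 4 were lower and 0 higher in FeNonAD, 8 lower and 1 higher in FeAAD, and 3 lower and 0 higher in MaCon, each against FeCon, with medians of -0.59, -0.74 and -0.49. In MaAAD against MaCon 1 was higher and 3 lower, close to or under the shares of all tested genes.

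Interleukin-6 and acute phase genes rose in lesioned mice of both sexes, 13 of 15 in MaAAD and 9 of 15 in FeAAD against controls, with medians of 1.87 and 1.35 and Slc39a14 left out of the list. Socs3, the feedback inhibitor induced by STAT3, rose by 2.57 in MaAAD (adjusted p = 2.3e-06) and 1.93 in FeAAD (adjusted p = 5.83e-05). Osmr rose in both, by 1.36 and 0.49 (adjusted p = 2.71e-06 and 0.0474), and Il6ra in MaAAD by 0.92 (adjusted p = 0.00851) but not in FeAAD (-0.10, adjusted p = 0.786). FeNonAD replicate 8, the library with high Mt1, Mt2 and Slc39a14, also had the highest Socs3 of its group, 90.1 CPM against a group median of 11.0. In MaCon against FeCon 4 of the 15 were lower and 0 higher, and in FeNonAD against FeCon 1 was higher and 1 lower, with a median of 0.25. Stat3 itself was lower than FeCon in FeNonAD (-0.46, adjusted p = 0.00362) and MaCon (-0.66, adjusted p = 2.06e-05), higher in MaAAD than in MaCon (0.52, adjusted p = 0.000222), and not called in FeAAD against FeCon (-0.17, adjusted p = 0.182).

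Macrophage markers, summed over 10 genes with none at 0 in any group, ran from 212 to 553 CPM in MaCon and 255 to 614 in FeCon, and from 885 to 4210 in MaAAD and 642 to 6346 in FeAAD. All 10 were higher in AAD than in controls in both sexes, while 0 differed between MaCon and FeCon or between FeNonAD and FeCon. All 10 smooth muscle markers were lower in AAD than in controls in both sexes, and 3 in FeNonAD. Of the 7 neutrophil markers tested, 5 were higher and 1 lower in MaAAD than in MaCon, 6 were higher and 0 lower in FeAAD than in FeCon, and 0 differed in FeNonAD; the lower one was Ngp (-3.72, adjusted p = 0.00202), named after its value was seen. Heart muscle markers were lower in FeAAD than in FeCon for 7 of 10 and in MaAAD than in MaCon for 2 of 10, with summed levels from 46.9 to 151 CPM in FeAAD and 85.4 to 742 in FeCon, none at 0 in every library of either group. Of 8 T and B cell markers, 3 were higher in MaNonAD and 2 in MaAAD than in MaCon, 1 in FeNonAD, 5 in FeAAD and 2 in MaCon than in FeCon, and 0 were lower. Of 10 fibroblast markers, 5 were higher in MaAAD than in MaCon, 2 were higher in FeNonAD and 4 higher and 2 lower in FeAAD than in FeCon, and 0 differed in MaNonAD or between the controls. Of 10 endothelial markers, 3 were higher in MaAAD than in MaCon, and against FeCon 2 were lower in FeNonAD, 2 higher and 2 lower in FeAAD and 1 lower in MaCon, and of 10 adipocyte markers 1 was lower, in FeAAD.

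Genes of the circadian clock split the libraries. Arntl (Bmal1) lay under 20 CPM in 1 of 10 MaCon, 4 of 4 MaNonAD, 7 of 7 MaAAD, 4 of 10 FeCon, 5 of 8 FeNonAD and 6 of 9 FeAAD libraries, with no library between 14.1 and 22.1 CPM. In males the BAPN groups and low Arntl cannot be told apart, and MaCon replicate 5, the single MaCon library with low Arntl (1.62 CPM), was the one highest in Mt1 and Mt2. In females both levels occurred in every group. Among libraries with Arntl under 20 CPM, Mt1 ran from 729 to 909 CPM in FeCon and from 103 to 247 in FeNonAD, a log2 difference of -2.31 (SE 0.52, adjusted p = 0.0212). Among those at 20 CPM or above it was -2.10 (SE 0.61, adjusted p = 0.0332), and for FeAAD against FeCon it was -1.44 (adjusted p = 0.0352) and -1.66 (adjusted p = 0.0354).

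Mt2 and Slc39a8 kept their direction but not every call under this split, which leaves 3 FeNonAD and 6 FeCon libraries with high Arntl, FeNonAD replicate 8 and FeCon replicate 2 among them. In FeNonAD against FeCon, Mt2 gave -3.19 (adjusted p = 0.0132) with low and -1.84 (adjusted p = 0.144) with high Arntl, and Slc39a8 gave -1.60 (adjusted p = 0.0286) and -0.62 (adjusted p = 0.215). In FeAAD against FeCon, Mt2 gave -1.28 (adjusted p = 0.134) and -1.26 (adjusted p = 0.221), and Slc39a8 -1.32 (adjusted p = 0.0105) and -0.48 (adjusted p = 0.25). For MaCon against FeCon with high Arntl, Mt1 gave -2.35 (adjusted p = 0.00138), Mt2 -3.04 (adjusted p = 0.00175), Slc39a8 -0.38 (adjusted p = 0.262) and Slc39a14 -0.91 (adjusted p = 0.00448). Of 15 clock genes tested, 7 were lower in MaCon than in FeCon, against 7.9% of all tested genes, and 3 were lower and 3 higher in MaAAD than in MaCon, close to the 16.1% and 18.9% of all tested genes. Arntl, Npas2 and Clock were among those lower in MaAAD (log2 differences of -2.78, -3.15 and -0.95, adjusted p = 0.00236, 0.000208 and 0.00145), and none of these 3 was called in FeNonAD or FeAAD against FeCon. Against FeCon, 1 clock gene was lower in FeNonAD, Cry2 (-0.83, adjusted p = 0.00685), and 3 were lower in FeAAD, Cry2 (-1.13, adjusted p = 1.86e-05), Nr1d1 (-1.54, adjusted p = 0.00119) and Per1 (-1.03, adjusted p = 0.00666), with list medians of -0.37 and -0.72; these were named after their values were seen. Both counts are close to the shares of all tested genes called lower, 7.66% and 20.6%.

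**Figure D4:**
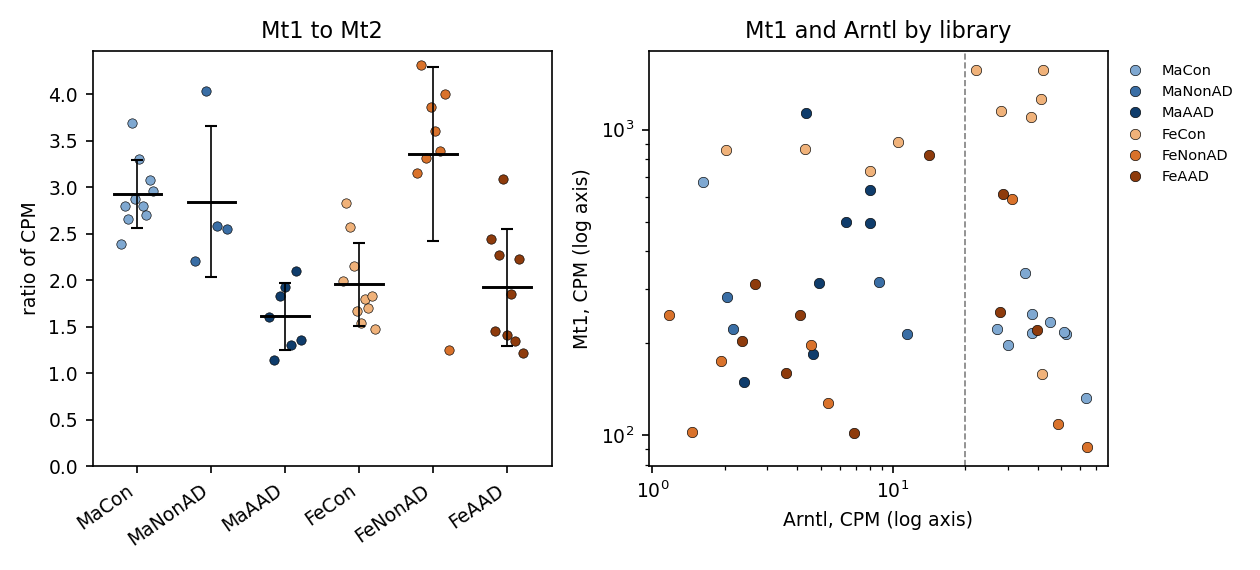
Left, the ratio of Mt1 to Mt2 CPM in each library by group, with the group mean and bars of 1 SD; right, Mt1 against Arntl in CPM on log axes, with a dashed line at 20 CPM. MaCon and MaAAD ratios do not overlap, and FeCon libraries on both sides of the line lie at 729 CPM of Mt1 or above except replicate 2.

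Some heat shock chaperones were lower in both male BAPN groups. Of 10 such genes, 3 were lower in MaNonAD and 8 in MaAAD than in MaCon, 8 were higher in MaCon than in FeCon, and 1 was lower in FeNonAD and 1 in FeAAD than in FeCon. The last 2 counts are near or under the shares of all tested genes called lower, 7.66% and 20.6%; in MaNonAD and MaAAD those shares were 0.18% and 16.1%, and 6.38% of all tested genes were higher in MaCon than in FeCon. In MaAAD the log2 differences of Hspa1a, Hspa1b and Hsph1 were -3.52, -3.60 and -2.12 (adjusted p = 6.48e-07, 3e-06 and 5.84e-06). In MaNonAD those of Hspa1a and Hspa1b were -2.72 and -2.94 (adjusted p = 0.0225 and 0.0321). MaCon varied widely in them, with Hspa1a from 83.2 to 1374 CPM.

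The genes most like each member were sought among 13709 others with at least 10 counts per library on average, by Pearson r of log2(CPM + 1) over 48 libraries, as a description. For Mt1 these were Mt2 (r = 0.964), Wdr92 (0.843) and Mpp6 (0.832), and for Mt2 they were Mt1, Mpp6 (0.857) and Stat3 (0.824). For Slc30a1 they were Zfp141 (0.863), Eef1aknmt (0.775) and Slf2 (0.765), and for Slc39a14 Prrc1 (0.841), Ammecr1 (0.838) and Rnf4 (0.828). With group means subtracted, Tnfrsf1a (0.839) and Rtn4rl2 (0.780) came next to Mt2 for Mt1, and the same genes at 0.800 and 0.800 next to Mt1 for Mt2. Zfp141 (0.848), Zfp60 (0.825) and Zfp72 (0.808) then led for Slc30a1, and Mthfd2 (0.861), Sh3pxd2b (0.836) and Ammecr1 (0.830) for Slc39a14.

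Slc39a8 was most like Upk1b (r = 0.819), Wt1 (0.809) and Msln (0.778), and with group means subtracted like Upk1b (0.809), Msln (0.785) and Crb2 (0.783). Upk1b, Wt1 and Msln are markers of mesothelium, the cell layer lining the pleural and pericardial surfaces. Msln ran from 13.5 to 109 CPM in FeCon, 14.5 to 47.7 in FeNonAD and 11.6 to 43.0 in FeAAD. It was lower than FeCon by -0.93 in FeNonAD (adjusted p = 0.0342) and by -0.93 in FeAAD (adjusted p = 0.00915). Of 10 mesothelial markers, a list drawn up after this likeness was seen, 3 were lower in FeNonAD and 7 in FeAAD than in FeCon, 0 differed between MaAAD and MaCon or MaCon and FeCon, and the summed level ran from 68.1 to 344 CPM in FeCon, 66.9 to 194 in FeNonAD and 58.8 to 146 in FeAAD. The part of these cells in the Slc39a8 result was not tested.

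**Figure D5:**
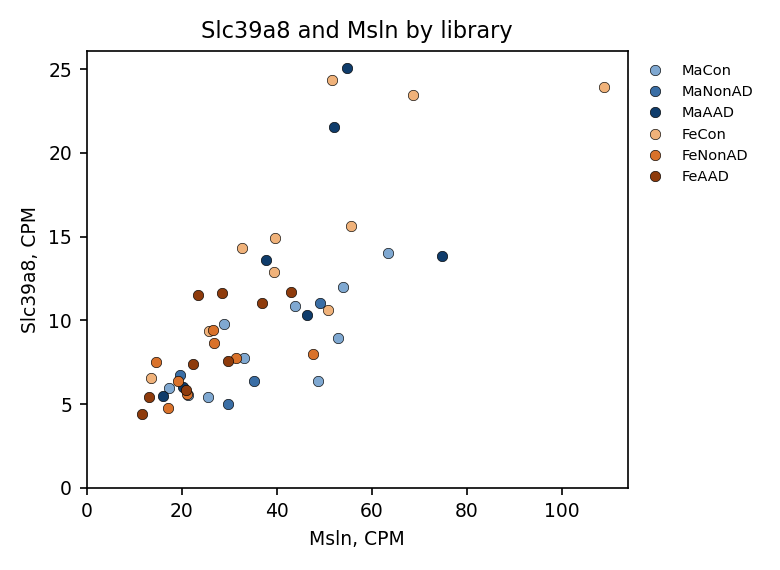
Slc39a8 against the mesothelial marker Msln in each of the 48 libraries, both in CPM, coloured by group. The libraries with Slc39a8 above 20 CPM, FeCon replicates 3, 4 and 6 and MaAAD replicates 2 and 6, all hold Msln at 51.6 CPM or above. Other libraries with Msln at that level hold less Slc39a8: 12.0, 14.0 and 8.97 CPM in MaCon replicates 2, 4 and 6, 13.8 in MaAAD replicate 7 and 15.6 in FeCon replicate 9.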

How the data were processed

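Strand-specific RNA-seq libraries of thoracic aorta, each from 1 mouse, were quantified by the authors, who deposited 1 table of expected counts per gene; the submitters' processing notes name Bowtie2, RSEM 1.3.1 and GRCm39. RNA came from lesioned segments where a lesion was present, and the time of day at harvest and the cage of each mouse were not used here. Of all values, 4.99% were not whole; these were rounded, while the members' counts were whole in every library. Library totals ran from 13548000 to 17281273, with TMM factors from 0.874 to 1.08.

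Genes kept by filterByExpr (14431) were fitted with edgeR 4.0.16 (R 4.3.3; robust quasi-likelihood, 6 group means, all 48 libraries), with Benjamini-Hochberg adjustment over all tested genes in each of 12 contrasts. A gene was called at an adjusted p under 0.05. DESeq2 1.42.0 was the alternative tool, and the fits were tested on simulated data. Levels are CPM with TMM factors. Correlations between members used log2(CPM + 1), 100000 permutations within groups and 10 pairs; ratios used exact permutation (Python 3.11.15, scipy 1.17.1). p-values measure the spread between mice within a group, with mice taken as independent. The paper states that males and females were housed apart, in multiple cages per group. The cages of single mice did not enter the tests, so likeness between cage mates is not accounted for.

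The members, gene lists, tests and alternatives were chosen with earlier results of these data known. The genes named beside the members were the 3 largest called rises and falls of the zinc and copper lists in each within-sex comparison, the 3 genes most like each member, and the leading 3 present in each of the glucocorticoid, acute phase, clock and heat shock lists; Mtf1, Mt3, Mt4 and Msln values were added after they were seen. Alternatives changed the normalization, filter, tool, samples, replicate block, pseudocount and gene length. The split at 20 CPM of Arntl, the libraries left out by name (from the correlation of Mt2 and Slc39a14 too) and the mesothelial list were chosen after seeing the data. Each library left out by name was the highest or lowest of its group in Mt1 and Mt2, so a call gained without it is weak evidence of a difference.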

Additional observations from a re-analysis of the deposited data

Results flagged for a closer look

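In 30 groups of members by condition, on the log2(CPM + 1) scale, the gap between the most extreme library and its neighbour exceeded Dixon's 95% limit 4 times, where chance flags about 1 in 20. FeCon replicate 2 was far below its group in Mt1 (159 CPM) and Mt2 (56.1 CPM). FeNonAD replicate 8 was far above its group in Mt2 (476 CPM) and Slc39a14 (216 CPM). The libraries depend on the scale: on linear CPM, an alternative chosen after seeing the data, 5 gaps passed, of which only the 2 of FeNonAD replicate 8 also passed on the log2 scale; the others were MaCon replicate 5 in Mt1 (672 CPM) and Mt2 (234 CPM) and FeNonAD replicate 8 in Mt1 (595 CPM), and FeCon replicate 2 did not pass. The response to AAD differed between males and females by an interaction term for Mt1 (2.50 on the log2 scale, adjusted p = 0.0125, edgeR), Mt2 (3.25, adjusted p = 0.0167) and Slc39a8 (1.53, adjusted p = 0.0209).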

How the results depend on the processing

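Of 118 recounts of called members under other settings, 108 stayed within 1.5 times the reported count, and of 530 refitted log2 differences over the 12 contrasts 477 kept direction and side of the threshold, 11 lost the call, 18 gained it and 24 changed sign. Requiring 2-fold left 1 member in MaAAD against MaCon. With Arntl at 20 CPM or above, 1 member was called in FeNonAD and 1 in FeAAD against FeCon. Without FeNonAD replicate 8, 2 were called in FeAAD against FeNonAD. For the sex difference in the NonAD response, 1 member was called by DESeq2, 1 in the compared groups only and 2 under the replicate block, and from 0 to 2 when single libraries were left out (1 without FeCon replicate 2 or MaCon replicate 5, 2 without FeNonAD replicate 8, 0 without single MaNonAD libraries). The cause was not tested; the subsets hold fewer libraries.

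Same-numbered libraries did not deviate together: per-pair correlations ran from -0.563 to 0.554, so the numbers do not pair the mice. The replicate block took the MaAAD calls of Slc30a1 (0.31, adjusted p = 0.0698, edgeR) and Slc39a8 (0.59, adjusted p = 0.11), and added Mt1 (1.01, adjusted p = 0.0369) and Slc39a14 (0.58, adjusted p = 0.0486). All changes of sign were in differences that were not called. In MaNonAD against MaCon, Mt1 became 0.37 under the replicate block; leaving out single libraries gave -0.14 to 0.24 for Mt1 and -0.12 to 0.30 for Mt2. Slc30a1 in FeNonAD against FeCon was -0.01 with high Arntl, and Slc39a14 with low Arntl was 0.07 in FeNonAD and 0.45 in FeAAD against FeCon. In the sex difference of the NonAD response Slc30a1 was -0.05 under the replicate block, and leaving out single libraries gave -0.04 to 0.15 for Slc30a1 and -0.03 to 0.36 for Slc39a14. Between MaNonAD and FeNonAD, Mt2 (-0.03) became 0.87 under the replicate block and 1.01 with low Arntl, and leaving out single libraries gave -0.18 to 1.16. Between MaAAD and FeAAD, Slc39a14 became 0.12 under the replicate block and 0.21 with low Arntl, where Slc30a1 was -0.01. In the sex difference of the step from NonAD to AAD, Mt2 was -0.07 with low Arntl, and leaving out single libraries gave -0.48 to 0.90 for Mt2 and -0.21 to 0.38 for Mt1, negative only without FeNonAD replicate 8. With exon union lengths, Slc39a8 stood at 1.13 and 2.04 CPM per kb and Slc39a14 at 9.06 and 13.7 in MaCon and FeCon. MaNonAD held 4 mice, the smallest group.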
